A study of Arabidopsis thaliana with 9 samples.

Results

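SMZ, GI and AT1G76580 are 3 genes grouped here as regulators of phase change and flowering time. Their transcripts were measured in young Arabidopsis thaliana seedlings. They were chosen by name, as the probe sets paired with the single genes SMZ (AT3G54990), GI (AT1G22770) and AT1G76580 (SPL16), and each gene had 1 such probe set. These are 3 of 22810 probe sets on the array, and all 3 were among the 13647 probe sets with enough signal to be tested. None of the probe sets paired with several genes names a member. The members, the gene lists and the tests were chosen with earlier results of these data known. The call of SMZ given below is therefore not a test planned blind to those results. The level of SPL13 itself was not analysed here, so the genotype labels were not checked against it.

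RNA from whole seedlings, grown for 3 days in light after 3 days of cold and dark on medium with sucrose, was hybridised to 9 single-colour Affymetrix arrays. The 3 groups had 3 arrays each, from independent seed lots. Col-0 was the untransformed wild type. The group called SPL13 was Col-0 transformed with a non-mutated copy of SPL13, and the group called mSPL13 was Col-0 transformed with the mutant, microRNA156-resistant copy, both driven by the native SPL13 promoter. All seedlings were in the Col-0 background and kept their own SPL13 genes. The sources used here do not say how many transgenic lines each group represents.

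SPL proteins are plant transcription factors that move a shoot from its juvenile to its adult phase, and the microRNA miR156 holds many of them down in young plants. As background, SPL proteins raise the microRNA miR172, which in turn represses a small family of AP2-type transcription factors. SMZ (SCHLAFMÜTZE) and its close relative SNZ (SCHNARCHZAPFEN) belong to that family and delay flowering. GI (GIGANTEA) is a clock-controlled protein that links day length to the flowering genes CO and FT, and its transcript rises and falls over the day. AT1G76580 is an SPL gene that lacks a miR156 target site.

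Values are MAS5 signals, the linear brightness summary that the authors' Affymetrix software gives for each probe set. Fold changes are on the scale of log2(signal + 20.7) and come from limma, fitted to all tested probe sets and all 9 arrays. Calls were made where the p adjusted by the Benjamini-Hochberg method lay under 0.05. Because probe sets differ in how brightly they respond, the level of one gene is not set against that of another.

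SMZ was called lower in mSPL13 seedlings than in wild type but not than in SPL13, and that call lay close to the threshold. Its signal was 400.1, 369.9 and 292.7 in Col-0 replicates 1, 2 and 3, with a mean of 354 ± 55.4 (SD, n = 3). It was 304.0, 307.7 and 311.5 in SPL13 (308 ± 3.75) and 247.7, 232.1 and 232.4 in mSPL13 (237 ± 8.92). The 3 mSPL13 arrays were thus the lowest of all 9, and they overlapped with neither other group. The order of the means was Col-0, SPL13, mSPL13, but Col-0 and SPL13 overlapped, because Col-0 replicate 3 lay below every SPL13 array.

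Against Col-0, the log2 fold change of SMZ in mSPL13 was -0.53 ± 0.14 (SE), a 1.44-fold lower level with a 95% interval of -0.82 to -0.24 (limma adjusted p = 0.0443, lower in 3 of 3 mSPL13 arrays than in any Col-0 array). In this comparison 2.3% of the tested probe sets were called lower and 4.37% were called in either direction. Lower signals without overlap between the groups were found for 10.5% of them. By p-value SMZ ranked 512 among 596 called probe sets, and 6.82% of those tested had a larger change.

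Against the SPL13 line, the log2 fold change of SMZ in mSPL13 was -0.35 ± 0.14, and this did not pass (limma adjusted p = 0.203, interval -0.64 to -0.06). Here 3.03% of probe sets were called, 1.17% as lower, and 11.7% were lower without overlap. SPL13 against Col-0 gave -0.18 ± 0.14 (limma adjusted p = 0.748, interval -0.47 to 0.11), in a comparison that called 0.0513% of probe sets. Set against the mean of both other groups, mSPL13 was lower by 1.35-fold (log2 fold change -0.44 ± 0.12, limma adjusted p = 0.0437), where 5.77% of probe sets were called, 2.75% as lower. That comparison reuses the arrays of the pairwise ones, so its call is not independent of the call against Col-0.

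**Figure D1:**
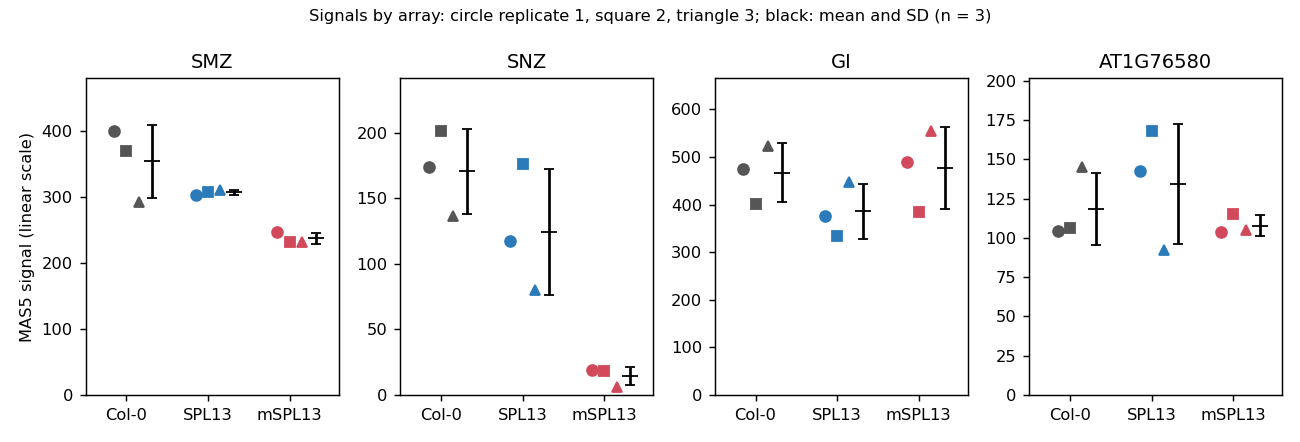
MAS5 signal (linear scale) of SMZ, SNZ, GI and AT1G76580 on each of the 9 arrays, by genotype; symbols mark the replicate number, and the black bar is the mean with its SD (n = 3). The mSPL13 arrays are lowest for SMZ (232.1 to 247.7) and SNZ (6.4 to 19.2), while the groups overlap for GI and AT1G76580.

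The call of SMZ was close to the threshold. It was lost in 8 of the 9 fits that left out 1 array, with log2 fold changes of -0.56 to -0.44, and kept only without Col-0 replicate 3, the array in which Col-0 was lowest (-0.65, limma adjusted p = 0.012). It was also lost when all probe sets were tested without the filter on dim signal (limma adjusted p = 0.0826) and when only the compared groups were fitted (0.0799). The call against the mean of both other groups was likewise lost in 8 of the 9 such fits (limma adjusted p up to 0.136) and kept only without Col-0 replicate 3 (0.016), and it was lost without the filter (0.0844). The direction against Col-0 was the same in each of the 20 alternatives.

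SNZ, the other AP2-type repressor with a probe set of its own, had far less signal in mSPL13 seedlings. Its signal was 173.9, 201.1 and 136.4 in Col-0 replicates 1, 2 and 3 (170 ± 32.5, SD, n = 3), 117.2, 175.7 and 80.2 in SPL13 (124 ± 48.2) and 19.2, 17.9 and 6.4 in mSPL13 (14.5 ± 7.05). All mSPL13 arrays lay below all others, and Col-0 and SPL13 overlapped. SNZ is not one of the 3 members, and its mean log2 signal of 6.60 left it under the filter of 6.92. Both SNZ and its fit without the filter were chosen for display after its signals had been seen.

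In the fit of all 22746 probe sets without the filter, SNZ fell by 2.45 ± 0.27 on the log2 scale in mSPL13 against Col-0 (limma adjusted p = 0.00191). In that fit 0.774% of probe sets were called lower in this comparison, and 8.58% were lower without overlap. Against SPL13 it fell by 2.01 ± 0.27 (limma adjusted p = 0.01, with 0.4% called lower and 9.2% lower without overlap), a call lost without mSPL13 replicate 3 (limma adjusted p = 0.053). SPL13 against Col-0 gave -0.44 ± 0.27 and did not pass (limma adjusted p = 0.762, in a comparison that called 0.0044%). All 3 mSPL13 signals are under the value of 20.7 added before taking logs, they are not shown to lie above background, and the size of the fall depends on that value. With a larger added value, the 40th percentile of signals, it was -1.23 against Col-0 and -0.95 against SPL13, and with none it was -3.69 and -3.18. These sizes are therefore not a measured fold, and the call against Col-0 was kept in each of the 18 alternatives tried for it.

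**Figure D2:**
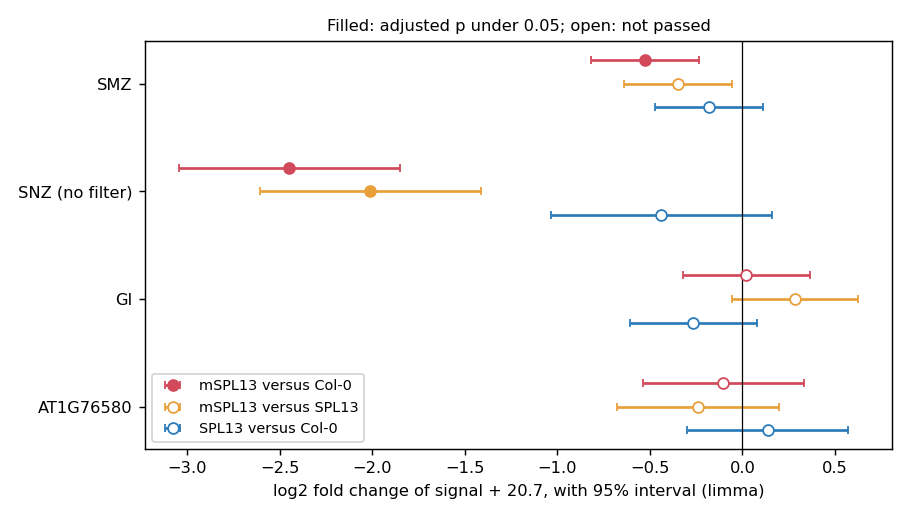
Log2 fold change of signal + 20.7 with its 95% interval (limma) for SMZ, SNZ, GI and AT1G76580 in the 3 pairwise comparisons; filled points passed an adjusted p of 0.05. SMZ passes in mSPL13 versus Col-0 alone, SNZ passes in both mSPL13 comparisons in the fit with no filter, and every interval of GI and AT1G76580 spans 0.

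The summed signal of 4 genes listed as root markers was also lowest on average in mSPL13, with overlap between mSPL13 and SPL13. The 4, measured out of 5 listed, were PYK10, NAI2, EXPA7 and EXPA18. Their sum ranged from 26811 to 29424 in Col-0, from 25152 to 27228 in SPL13 and from 23759 to 25522 in mSPL13. Of the 4, 1 (NAI2) was called lower in mSPL13 against Col-0 and against SPL13, where 2.3% and 1.17% of all tested probe sets were. PYK10, EXPA7 and EXPA18 were not called in a pairwise comparison. A sum of raw signals follows its brightest genes most, and it is not shown here to measure the share of root. The 3 measured markers of green tissue out of 5 listed (LHCB4.2, RCA and PRK) summed to between 47386 and 54030 in Col-0, between 50831 and 54349 in SPL13 and between 49145 and 51549 in mSPL13. In the 3 pairwise comparisons 0 of them were called (limma). Over all tested probe sets, 4.37% were called in mSPL13 against Col-0, 3.03% in mSPL13 against SPL13 and 0.0513% in SPL13 against Col-0. The control ratio of 3′ to 5′ signal of GAPDH, which rises as RNA breaks down, had means of 0.977 (Col-0), 0.951 (SPL13) and 1.05 (mSPL13). The same ratio was 2.597, 2.59 and 2.868 for actin and 1.12, 1.07 and 1.21 for ubiquitin, so the mean of each of the 3 controls was highest in mSPL13. For GAPDH every mSPL13 ratio (1.007 to 1.104) lay above those of Col-0 (0.944 to 0.999), with overlap with SPL13. For ubiquitin every mSPL13 ratio (1.096 to 1.275) lay above those of SPL13 (1.047 to 1.085), with overlap with Col-0. For actin mSPL13 overlapped with both other groups. The part of root share and RNA quality in the SMZ and SNZ results was not tested, and in whole seedlings fewer cells of a type and less RNA per cell cannot be told apart.

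**Figure D3:**
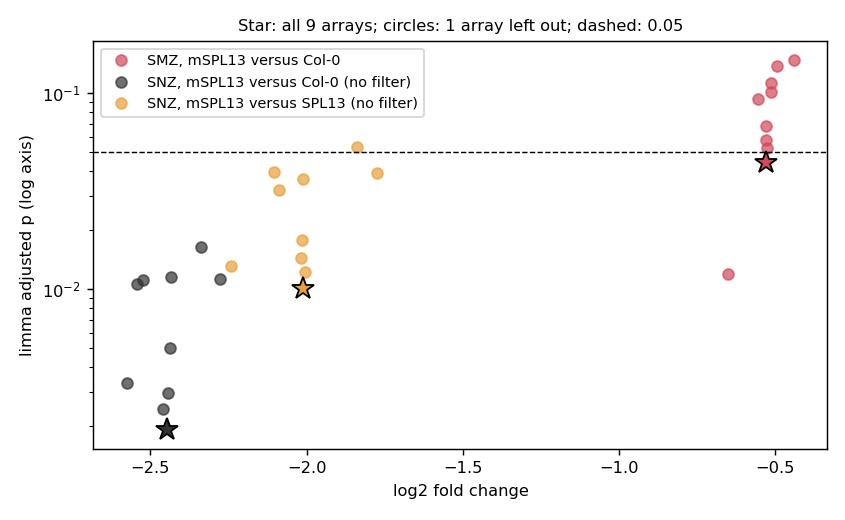
Log2 fold change against limma adjusted p (log axis) for SMZ and SNZ with all 9 arrays (stars) and with 1 array left out (circles); the dashed line is 0.05. For SMZ 8 of the 9 circles lie above the line, for SNZ against Col-0 none does, and for SNZ against SPL13 one does.

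GI did not pass in any comparison. Its signal was 475.2, 400.8 and 523.8 in Col-0 replicates 1, 2 and 3 (467 ± 61.9, SD, n = 3), 375.9, 333.1 and 447.2 in SPL13 (385 ± 57.6) and 489.9, 383.7 and 554.1 in mSPL13 (476 ± 86.1). The 3 groups overlapped, and the order of the means, mSPL13, Col-0, SPL13, separated no neighbours beyond their spread. For mSPL13 against Col-0 the log2 fold change was 0.02 ± 0.16 (limma adjusted p = 0.961), and 93.25% of the tested probe sets had a larger one. The 95% interval of the ratio ran from 0.799 to 1.29.

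The larger differences of GI were with the SPL13 group. GI was 1.22-fold higher in mSPL13 than in SPL13 (log2 fold change 0.28 ± 0.16, interval -0.06 to 0.63, limma adjusted p = 0.402). In SPL13 against Col-0 its log2 fold change was -0.26 ± 0.16 (interval -0.61 to 0.08, limma adjusted p = 0.674). These 2 comparisons share the SPL13 arrays. The SPL13 arrays also stood apart in the 66 chloroplast-encoded probe sets tested, with medians of -2.35 to -0.80 on the log2 scale relative to the Col-0 mean, against -0.03 to 0.30 in mSPL13. Their part in the GI values was not tested. At the spread of GI, a difference of 1.52-fold would have been needed for a call in mSPL13 against Col-0, of 1.55-fold in mSPL13 against SPL13 and of 1.99-fold in SPL13 against Col-0.

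GI had the same order of replicate numbers in every genotype. In each genotype the array numbered 3 had the highest GI signal and the array numbered 2 the lowest. Such an identical order in all 3 genotypes was found for 3.88% of the tested probe sets, and for 1 of the 17 tested flowering-time and phase change genes, GI itself. Within each replicate number, the SPL13 array had the lowest GI signal of the 3 genotypes. How many tested probe sets show that pattern was not computed, and the replicate numbers were not used as pairs. The differences between genotypes made up 34.7% of the variance of GI over the 9 arrays, against a median of 32.9% over all tested probe sets. The labels do not give the time of day of harvest.

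**Figure D4:**
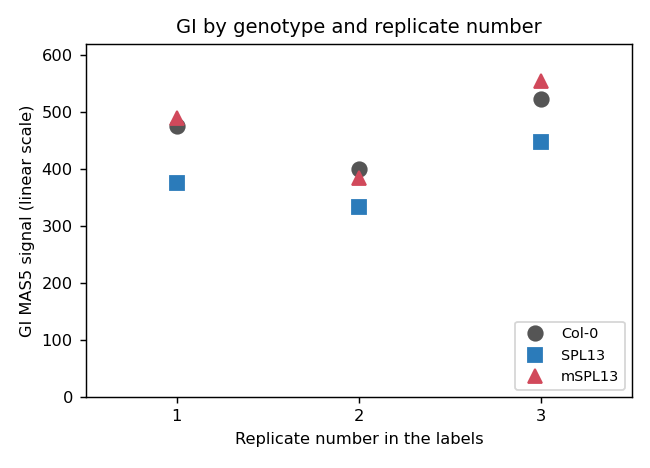
GI signal (linear MAS5 scale) by replicate number, with 1 symbol per genotype. The values at number 2 (333.1 to 400.8) are the lowest and those at number 3 (447.2 to 554.1) the highest of each genotype. SPL13 is lowest within each number, though the numbers were not used as pairs.

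AT1G76580 did not pass in any comparison either. Its signal was 104.1, 106.2 and 144.9 in Col-0 replicates 1, 2 and 3 (118 ± 23.0, SD, n = 3), 142.7, 168.0 and 92.5 in SPL13 (134 ± 38.4) and 103.5, 115.3 and 104.8 in mSPL13 (108 ± 6.47). The highest and the lowest of the 9 arrays, SPL13 replicates 2 and 3, belonged to the same genotype. The means were ordered SPL13, Col-0, mSPL13, with overlap between all groups.

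The log2 fold change of AT1G76580 was -0.10 ± 0.20 in mSPL13 against Col-0 (limma adjusted p = 0.834) and -0.24 ± 0.20 in mSPL13 against SPL13 (limma adjusted p = 0.601). It was 0.14 ± 0.20 in SPL13 against Col-0 (limma adjusted p = 0.897). The 95% intervals of the ratio ran from 0.688 to 1.26, from 0.626 to 1.15 and from 0.813 to 1.49. At this spread a difference of 1.70-fold would have been needed for a call in mSPL13 against Col-0, of 1.74-fold in mSPL13 against SPL13 and of 2.405-fold in SPL13 against Col-0. Its signal was dim, with a mean log2 value of 7.12, and it was not among the probe sets tested when the filter was set at the 60th percentile.

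The 3 members thus differed in how much of their variation lay between genotypes. That share was 80.8% for SMZ, 34.7% for GI and 17.7% for AT1G76580. Their spread within genotypes (log2 SD) was 0.131, 0.218 and 0.26, beside a median of 0.178 over the tested probe sets. The low value for SMZ came from the SPL13 and mSPL13 groups, with SDs of 0.016 and 0.049 on the log2 scale, while the SD in Col-0 was 0.221.

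Among the flowering-time and phase change genes that passed the filter, SMZ gave the only call in a pairwise comparison, while SNZ, under the filter, is described above. Of 171 genes in 8 lists, 24 were matched to a probe set of their own and 17 passed the filter and were tested. In mSPL13 against Col-0, 1 of the 17 was called (SMZ, lower) (limma, with 1 at an unadjusted p under 0.05, against 4.37% called over all tested probe sets), and their median log2 fold change was 0.01, the same as the median of 0.01 over all tested probe sets. In mSPL13 against SPL13, 0 of the 17 were called (limma, 1 at an unadjusted p under 0.05, against 3.03% called over all), with a median of 0.09 beside 0.00 over all. In SPL13 against Col-0, 0 were called (limma, 0 at an unadjusted p under 0.05, against 0.0513% called over all), with a median of -0.05 beside 0.01. Of the 17 genes in the SPL family list 1, AT1G76580, was analysed here.

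Of the clock genes tested beside GI, AT5G52660, a relative of the morning clock factors, had a mean signal of 208 in mSPL13 against 164 in Col-0 and 162 in SPL13. Its log2 fold changes were 0.31 ± 0.17 and 0.35 ± 0.17 (limma adjusted p = 0.341 and 0.333). XCT and TIC, which are needed for normal clock timing, had log2 fold changes of -0.18 ± 0.18 and 0.10 ± 0.15 in mSPL13 against Col-0. The fourth tested gene of that list was GI. In the photoperiod list the only other gene tested was AT1G69570, a DOF-type factor (-0.10 ± 0.28).

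Among the MADS-box and meristem identity genes, AGL18, a floral repressor, had 0.20 ± 0.15 in mSPL13 against Col-0, and ATC, a relative of the floral repressor TFL1, had -0.14 ± 0.30. AGL24, AGL19, AGL42 and FD, the bZIP partner of FT, had signals of at most 44 on every array and lay under the filter. In the fit without the filter, none of them was called in a pairwise comparison. There FD had 0.80 ± 0.29 in mSPL13 against Col-0 (limma adjusted p = 0.217). Its signals were 5.3 to 6.1 in Col-0 and 7.2 to 44.0 in mSPL13. The autonomous pathway genes FY and LD, which keep the repressor FLC low, had log2 fold changes of -0.13 ± 0.18 and 0.04 ± 0.16. AGO7, an Argonaute protein of the trans-acting siRNA pathway that sets phase change, had -0.15 ± 0.19, and SE, which takes part in microRNA processing, had -0.03 ± 0.14.

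In the gibberellin list, the receptors GID1A and GID1B had log2 fold changes of 0.06 ± 0.13 and 0.01 ± 0.16 in mSPL13 against Col-0. SLY1, which marks DELLA repressors for breakdown, had 0.16 ± 0.18, and SPY, a repressor of gibberellin response, had 0.18 ± 0.12. The smallest p of this list in a pairwise comparison was that of GID1A in mSPL13 against SPL13 (0.28 ± 0.13, limma adjusted p = 0.317).

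**Figure D5:**
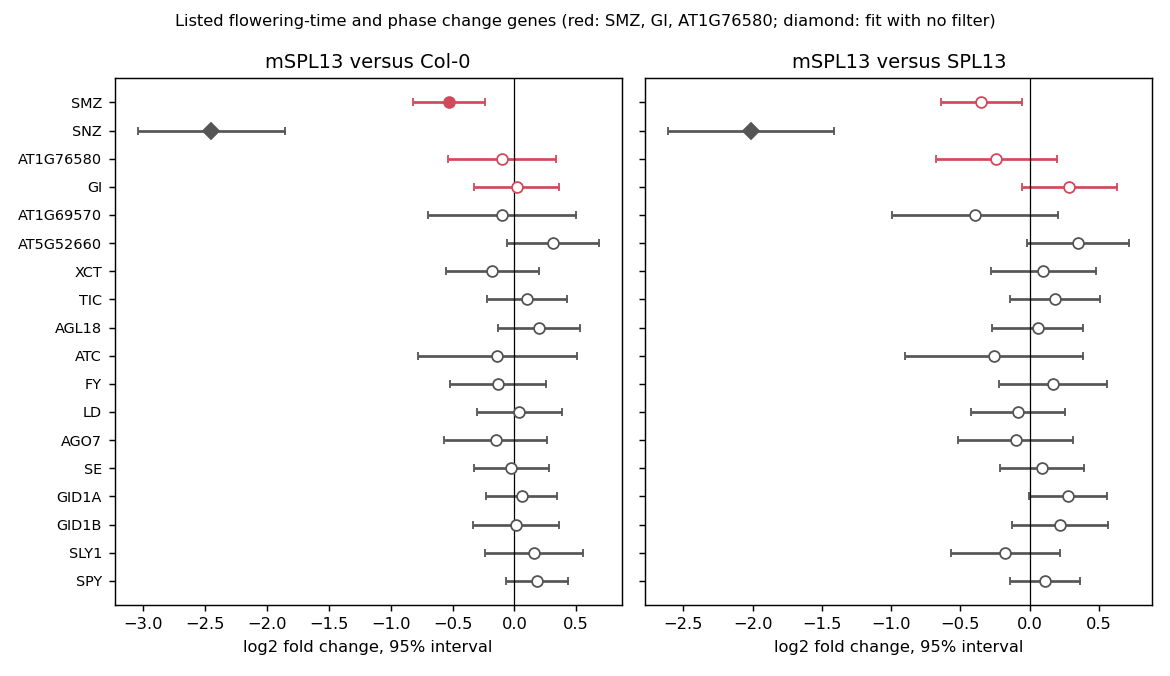
Log2 fold change with its 95% interval for the 17 tested flowering-time and phase change genes and for SNZ (diamond, fit with no filter), in mSPL13 versus Col-0 and in mSPL13 versus SPL13. Of the 17 tested genes, SMZ is filled (adjusted p under 0.05) in the first comparison and none is in the second.

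The genes whose signal ran most like that of SMZ over the 9 arrays were sought among 7312 other tested probe sets paired with 1 gene. The 5 highest Pearson correlations were those of AT5G19240 (r = 0.962), AT5G66590 (0.960), AT1G80130 (0.957), HAT2, a homeodomain factor of auxin response (0.954), and AT3G47380 (0.952). Each of them was called lower in mSPL13 against Col-0, where 2.3% of all tested probe sets were. Their log2 fold changes against Col-0 ran from -1.58 (AT1G80130) to -0.70 (AT5G66590), larger in size than that of SMZ. Against SPL13, HAT2 alone was called lower (limma adjusted p = 0.00425), where 1.17% of all tested probe sets were. The others did not pass there (limma adjusted p of 0.059 to 0.175). Because these genes were picked for running like SMZ, which was lowest in mSPL13, their calls are no separate support for the fall of SMZ. The mean signal of HAT2 was 632 (Col-0), 532 (SPL13) and 282 (mSPL13). The 3 most opposite genes were AT1G19530 (r = -0.976), AT2G32000 (-0.970) and BUB3.2, of the mitotic checkpoint family (-0.966). The mean signal of AT1G19530 was 262 (Col-0), 298 (SPL13) and 799 (mSPL13).

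The likest genes of the other 2 members were not called in any mSPL13 comparison with Col-0 or SPL13. For GI they were AT1G61260 (r = 0.898), AIM1, an enzyme of peroxisomal fatty acid breakdown (0.895), AT3G20015 (0.881), AT2G43260 (0.867) and AT1G17145 (0.864), and the most opposite were AT5G61170 (-0.932), AT5G57330 (-0.898) and AT2G47380 (-0.893). For AT1G76580 they were AT2G41080 (r = 0.896), AT5G64970 (0.893), AT1G70740 (0.859), AT1G28250 (0.850) and AT3G18430 (0.849), and the most opposite were SIS (-0.936), AT5G01010 (-0.893) and AT5G61670 (-0.854). All these values are over 9 arrays that share their genotype groups, and they were picked as the extremes of 7312, so they are a description.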

How the data were processed

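The authors deposited intensity signals of 22810 probe sets on a linear scale, made with MAS5 in GCOS per the submitters' processing notes, and no other array data entered the fits. The median signal of an array was 175.6 to 190.8, and correlations between pairs of arrays ran from 0.959 to 0.988 on the log2 scale. The number of arrays limits the precision. Probe sets were named through the platform's gene table and RefSeq's TAIR10.1 gene table, used for names alone. Before taking log2, 20.7 was added to each signal (the 20th percentile of signals outside control probe sets), and the 13647 probe sets with a mean above 6.92, the 40th percentile of the probe set means, were kept. With each genotype given its own mean, all 9 arrays were fitted in limma 3.58.1 in R 4.3.3, with a variance trend and Benjamini-Hochberg adjustment over all tested probe sets, and the procedure was tested on simulated data. The members, the gene lists and the tests were chosen with earlier results of these data known. Named were the 3 members, every listed gene called, up to 4 tested members per list with the smallest p, and the 5 likest and 3 most opposite genes of each member. SNZ, FD, AGL19, AGL24 and AGL42 are exceptions, named after their values were seen. Alternatives covered the added value, the filter, normalization, variance trend, samples fitted, replicate block, array weights and each array left out. Tables and figures used Python 3.11.15 with pandas 2.3.3, numpy 2.4.6, scipy 1.17.1 and matplotlib 3.10.9. No sequences were given for these genes, and none is shown.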

Additional observations from a re-analysis of the deposited data

How the results depend on the processing

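The call of SMZ in mSPL13 against Col-0 was lost with no filter, with only the compared groups and with replicate numbers entered as a replicate block, each at a log2 fold change of -0.53 (limma adjusted p = 0.0507 with the block), and the fits without 1 array ranged from -0.65 to -0.44. Against the mean of both other groups it was lost with no filter and with the replicate block (-0.44, limma adjusted p = 0.0517 with the block), and without 1 array it ranged from -0.50 to -0.39. The number of listed flowering-time genes called against Col-0 was 0 with the replicate block and in the fit of compared groups alone, and 0 to 1 without 1 array. Against the mean it was 0 with the replicate block and 0 to 1 without 1 array. Against SPL13 it was 1 with no filter, and with no filter the 1 call in each mSPL13 comparison was SNZ. The fold change of SNZ against SPL13 was -2.24 to -1.77 without 1 array, and its call was lost without mSPL13 replicate 3 (-1.84). GI in mSPL13 against Col-0, not called, turned from 0.02 to -0.0007 with median centring and ranged from -0.093 to 0.16 without 1 array. AT1G76580, not called, ranged from -0.17 to 0.030 against Col-0 and from -0.020 to 0.35 for SPL13 against Col-0 without 1 array, and from -0.45 to -0.08 in mSPL13 against SPL13. Without 1 array, the SPL13 against Col-0 values, none called, ranged from -0.30 to -0.09 for SMZ, from -0.68 to -0.20 for SNZ and from -0.37 to -0.17 for GI, and GI in mSPL13 against SPL13 from 0.17 to 0.43.

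Over all probe sets, 596 were called in mSPL13 against Col-0, 373 with no filter and 246 to 906 without 1 array. For mSPL13 against SPL13 the count of 414 was 236 with no filter, 688 with array quality weights and 196 to 468 without 1 array. For SPL13 against Col-0 the count of 7 was 14 with the added value at the 40th percentile, 1 with no filter, 24 with median centring (3 higher and 21 lower, against 2 and 5), 1 without trend, 2 on the compared groups only and 1 to 148 without 1 array. Against the mean of both the count of 788 was 517 with no filter and 342 to 883 without 1 array. The cause of these moves was not tested. Arrays with the same replicate number did not deviate together as a rule (r of -0.06 to 0.15 over 9 pairs, against -0.16 to 0.20 for other pairs), so the numbers were not used as pairs. With the replicate block, the SE of GI was 0.12 in place of 0.16, and its adjusted p was 0.236 in mSPL13 against SPL13 and 0.513 in SPL13 against Col-0. Of 304 alternative fold changes, 276 kept their direction and their side of the threshold, 22 lost the call and 6 changed sign, the latter all in GI or AT1G76580. A change not called in the main fit counts among the 276 when it stays uncalled in the same direction. The call of SMZ was kept in 9 of 20 alternatives against Col-0 and in 9 of 19 against the mean of both other groups. The comparison of mSPL13 with the mean of both has no fit on compared groups only.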
